A study of Rattus norvegicus with 14 samples.

Results

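Sulfotransferases move a sulfonate group from the donor 3'-phosphoadenosine-5'-phosphosulfate (PAPS) to phenols, steroids, bile acids and N-hydroxylated arylamines. For most of these substrates the product is more soluble and is excreted, but sulfonation of N-hydroxy-2-acetylaminofluorene yields a reactive ester that binds DNA, and this is a known route by which 2-acetylaminofluorene (AAF) becomes toxic to rat liver. PAPS itself is made from sulfate and ATP by PAPS synthase, an enzyme with a liver-enriched form encoded by Papss2 and a more widely expressed form encoded by Papss1. The genes described here are Sult1c3, Sult1a1, Sult2a1, Sult1c2, Sult1b1 and Papss2, 6 of the 14502 genes with a symbol of their own on the array. They were listed by name, and each was read from the probe set that carries its symbol alone.

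RNA was measured on Affymetrix Rat Gene ST 1.0 arrays in liver that had been fixed in formalin, embedded in paraffin and laser captured, from 12 male F344 rats in 4 groups of 3 animals. Rapamycin foci and placebo foci were persistent lesions positive for GSTP, the placental glutathione S-transferase that marks such foci. Those rats had been given diethylnitrosamine (200 mg/kg, day 1) and then, from day 14, a pellet that released 2.5 mg of AAF over 14 days. Part of the liver was removed on day 21, when a pellet lasting 21 days was placed that held rapamycin (2.5 mg/kg/day) or placebo, and the lesions were taken on day 70. AAF/PH liver had seen no diethylnitrosamine. Its rats received the same AAF pellet on day 1 and lost part of the liver on day 7, and the tissue, which the labels call oval cells, was taken on day 14. Normal liver came from rats that were not manipulated. AAF and hepatectomy were thus common to every group but normal liver, and the foci were sampled after the AAF pellet had run out. Compared with AAF/PH liver, foci were also taken longer after hepatectomy, and their rats alone had a rapamycin or placebo pellet. Diethylnitrosamine, the kind of tissue captured, the times since AAF and hepatectomy and the further pellet cannot be told apart in that comparison. The labels do not give the animals' ages or litters, so the p-values measure the spread between these animals only.

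The foci had been captured for their GSTP stain, and Gstp1 served as a check of the labels. It read 3827.3, 4363.3 and 1814.2 in rapamycin foci and 3743.4, 3748.5 and 4639.3 in placebo foci, against 182.6, 151.9 and 216 in AAF/PH liver and 113.8, 100.1 and 115.5 in normal liver. Genes that go with this stain were part of the choice of the lesions. Rapamycin animal 3 was measured on 3 arrays, averaged here to 1 value. On those arrays Sult1c3, for example, read 80.6, 69.3 and 102.2, and Sult1b1 read 225.9, 222 and 316.9. Its arrays had a narrower spread of log2 values over genes than the others (interquartile range 1.57 to 1.71, against 1.98 to 2.80 on the other arrays), and in its group this animal had the lowest value of all 6 genes, as it had for 45.8% of all genes. Median intensities of the arrays ran from 19.8 to 25.4, a scale against which the dim genes below may be read, since the table holds no call of signal over background. A gene under that median may not stand above background. For Sult1c3, Sult2a1, Sult1c2 and Papss1 a fold that rests on such animals is therefore given with each dim value raised to the median of its array. Such a fold is an estimate from these animals and does not allow for the spread between them. The rule was added after the values were seen. The fitted log2 differences use the values as they are.

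Sult1c3 encodes the enzyme long known in the rat as hydroxyarylamine sulfotransferase, the form that acts on N-hydroxy-AAF. It had intensities of 246.8, 202.8 and 82.9 in rapamycin foci, 81.4, 154.3 and 122.6 in placebo foci and 28.7, 34.2 and 8.67 in AAF/PH liver, against 874.7, 907.8 and 787.5 in normal liver. Every treated animal lay below every normal one, and the foci of all 6 animals lay above every AAF/PH liver. With the dim value raised, Sult1c3 was 30.4-fold lower in AAF/PH liver than in normal liver. The fitted log2 difference was -5.39 ± 0.46 (standard error of the limma fit, adjusted p = 2.83e-06, Benjamini-Hochberg over all 14502 genes). AAF/PH animal 3, at 8.67, was under the median of its array, and without it the difference was -4.77, or 27.3-fold (limma adjusted p = 9.21e-06). Against normal liver it was 5.32-fold lower in rapamycin foci (-2.41 ± 0.46, limma adjusted p = 0.00809) and 7.41-fold lower in placebo foci (-2.89 ± 0.46, limma adjusted p = 0.0012). With the dim value raised, the foci held 5.71-fold (rapamycin) and 4.10-fold (placebo) more than AAF/PH liver. The fit of the values as they are gave limma adjusted p of 0.00155 and 0.00545. Without AAF/PH animal 3 the values were 5.13-fold and 3.69-fold (limma adjusted p = 0.00517 and 0.02). Of 10 hepatocyte markers 8 were called lower in AAF/PH liver than in normal liver (12.5% of all genes), with a median log2 difference of -0.97. In placebo foci 5 were called lower (5.39% of all genes), and in rapamycin foci 1 (4.94% of all genes). The part of hepatocyte content in the Sult1c3 result was not tested. In bulk captures fewer cells of a type and less RNA per cell cannot be told apart. The order of the levels was AAF/PH liver, placebo foci, rapamycin foci and normal liver, and the kinds of foci, neighbours in that order, did not differ detectably (0.48 ± 0.46, 95% interval -0.51 to 1.47, limma adjusted p = 0.985).

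Sult2a1, the hydroxysteroid sulfotransferase, conjugates dehydroepiandrosterone and bile acids. Its intensities were 108.7, 83.1 and 56.7 in rapamycin foci, 11.1, 60.3 and 41.2 in placebo foci and 5.67, 13.2 and 8.28 in AAF/PH liver, against 357.9, 318.9 and 349.8 in normal liver. In AAF/PH liver all 3 animals, and among placebo foci animal 1, were below the median of their arrays, whereas in normal liver the gene was well above it. With the dim values raised, Sult2a1 was 14.7-fold lower in AAF/PH liver than in normal liver (fitted difference -5.32 ± 0.48 on the log2 scale, limma adjusted p = 4.15e-06). Placebo foci, with animal 1 raised, were 9.01-fold lower than normal liver (fitted difference -3.50 ± 0.48, limma adjusted p = 0.000365). Without placebo animal 1 the difference was -2.78, or 6.86-fold (limma adjusted p = 0.000507). Rapamycin foci were 4.27-fold lower (-2.10 ± 0.48, limma adjusted p = 0.0189), and this call was lost when normal animal 1 or normal animal 3 was left out (adjusted p = 0.0899 and 0.0801). Between rapamycin foci and AAF/PH liver the animals did not overlap. Rapamycin foci were 3.44-fold higher with the dim values raised (limma adjusted p = 0.00111 for the values as they are). Placebo foci against AAF/PH liver was a weaker call (1.82 ± 0.48, limma adjusted p = 0.0461): placebo animal 1, at 11.1, lay inside the AAF/PH range, and the call was lost in 11 of 22 alternative analyses. Without placebo animal 1 that difference was 2.55 (limma adjusted p = 0.00127).

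Sult1c2 belongs to the same subfamily as Sult1c3 and is known in the rat mainly from kidney and stomach. It was dim, at 11.2, 11 and 9.83 in rapamycin foci, 5.86, 5.28 and 7.10 in placebo foci and 4.75, 7.86 and 8.49 in AAF/PH liver, against 49.2, 45.2 and 30.7 in normal liver. Normal liver alone stood above the median of its arrays, and no treated animal reached the lowest normal one. With the dim values at the array median the folds below normal liver were 1.79 in rapamycin foci, 1.87 in placebo foci and 1.76 in AAF/PH liver. The log2 difference of Sult1c2 from normal liver was -1.94 ± 0.24 in rapamycin foci (limma adjusted p = 0.000402), -2.76 ± 0.24 in placebo foci (limma adjusted p = 6.99e-06) and -2.58 ± 0.24 in AAF/PH liver (limma adjusted p = 5.16e-06). The treated groups all lay under the array medians, and limma did not separate them (adjusted p = 0.196 between rapamycin foci and AAF/PH liver, and 0.799 between placebo foci and AAF/PH liver). A filter on dim genes removes Sult1c2 from the test, so its values have no counterpart there.

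These 3 genes were the members called lower than normal liver in rapamycin foci, in placebo foci and in AAF/PH liver alike, and the start of each is shown because they moved together. The sequences are RefSeq promoter windows of the rat assembly GRCr8, 250 bases before to 50 after the annotated start, read 5′ to 3′ along the gene. Capitals mark matches to 7 short motifs searched on both strands, namely TATAAA of the core promoter, TTCNNNGAA as bound by STAT factors, CAAAGTCCA as bound by HNF4, GTTAAT from the site of HNF1, GGGCGG known as the GC box, GCGTG as the core of aryl hydrocarbon receptor sites, and CCAAT. The motifs were chosen with the results known. Sult1c3 lies at chr9:7594207-7594506 on the minus strand, Sult2a1 at chr1:84638898-84639197 on the minus strand and Sult1c2 at chr9:7436731-7437030 on the plus strand.
Sult1c3: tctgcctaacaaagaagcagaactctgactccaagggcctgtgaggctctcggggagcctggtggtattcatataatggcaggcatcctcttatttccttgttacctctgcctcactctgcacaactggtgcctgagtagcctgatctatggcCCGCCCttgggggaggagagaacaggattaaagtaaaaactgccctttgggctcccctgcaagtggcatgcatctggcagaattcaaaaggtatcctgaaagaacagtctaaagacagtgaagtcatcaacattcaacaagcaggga
Sult2a1: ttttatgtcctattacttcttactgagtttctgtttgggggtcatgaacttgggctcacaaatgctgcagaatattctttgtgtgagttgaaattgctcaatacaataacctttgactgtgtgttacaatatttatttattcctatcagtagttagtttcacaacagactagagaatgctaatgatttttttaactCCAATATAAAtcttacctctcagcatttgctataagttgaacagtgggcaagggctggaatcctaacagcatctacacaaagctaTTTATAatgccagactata
Sult1c2: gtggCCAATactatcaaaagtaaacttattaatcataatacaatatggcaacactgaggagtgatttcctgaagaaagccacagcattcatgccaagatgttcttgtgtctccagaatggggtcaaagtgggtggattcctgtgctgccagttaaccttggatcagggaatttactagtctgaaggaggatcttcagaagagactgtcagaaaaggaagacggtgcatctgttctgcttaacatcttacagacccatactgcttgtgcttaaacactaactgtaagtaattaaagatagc
No motif of the 7 was found in all 3 windows. Sult1c3 had a GC box on the opposite strand at -97 to -92 from the start, a motif that 33.1% of all 33469 promoter windows hold. Sult2a1 had CCAAT at -54 to -50, which shares its last base with TATAAA at -50 to -45, and another TATAAA on the opposite strand at 31 to 36. CCAAT occurs in 37.5% of all windows and TATAAA in 14.2%. Sult1c2 had CCAAT at -246 to -242. The GC contents were 49.7% for Sult1c3, 34.7% for Sult2a1 and 41.0% for Sult1c2, beside a median of 51.7% over all windows. These are matches of letters in the reference, and binding was not measured.

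Sult1a1, the phenol sulfotransferase, clears simple phenols and drugs and, like Sult1c3, can act on N-hydroxyarylamines. It stayed bright in every group, at 868.5, 920.2 and 363.3 in rapamycin foci, 601.2, 540.7 and 931.8 in placebo foci and 578.8, 540.6 and 450.7 in AAF/PH liver, against 1451.4, 1250.2 and 1280.3 in normal liver. All 9 treated animals were below all normal ones, and rapamycin animal 3 was the lowest of the 12. The decrease was called in AAF/PH liver, at 2.55-fold below normal liver (-1.35 ± 0.30, limma adjusted p = 0.00636). In rapamycin foci and placebo foci the differences from normal liver were -1.0 ± 0.30 and -0.98 ± 0.30 and missed the threshold (limma adjusted p = 0.0638 and 0.0653). Both sat close to it: the placebo difference passed in 6 and the rapamycin difference in 4 of 22 alternatives, and without rapamycin animal 3 the placebo value was adjusted p = 0.00108. None of the neighbours in the order AAF/PH liver, rapamycin foci, placebo foci and normal liver was separated by the test.

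Sult1b1, which sulfonates thyroid hormones and small phenols, was the 1 member with no call in any comparison. It measured 751.9, 904.3 and 251.4 in rapamycin foci, 599.8, 614.4 and 845.7 in placebo foci and 520.2, 290.4 and 463.5 in AAF/PH liver, against 695.4, 812.7 and 668 in normal liver. The foci of both kinds overlapped normal liver, while the 3 AAF/PH livers lay below it. The AAF/PH difference from normal liver was -0.81 ± 0.37 with a 95% interval of -1.61 to -0.01 (limma adjusted p = 0.137). It passed the threshold in 3 of 22 alternatives, among them the fit without rapamycin animal 3 (adjusted p = 0.00536). For placebo foci the difference from normal liver was -0.09 ± 0.37 (limma adjusted p = 0.919), and for rapamycin foci -0.38 ± 0.37 (limma adjusted p = 0.488). Over the alternatives these ran from -0.25 to 0.12 and from -0.73 to 0.19, so neither had a settled direction.

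**Figure D1:**
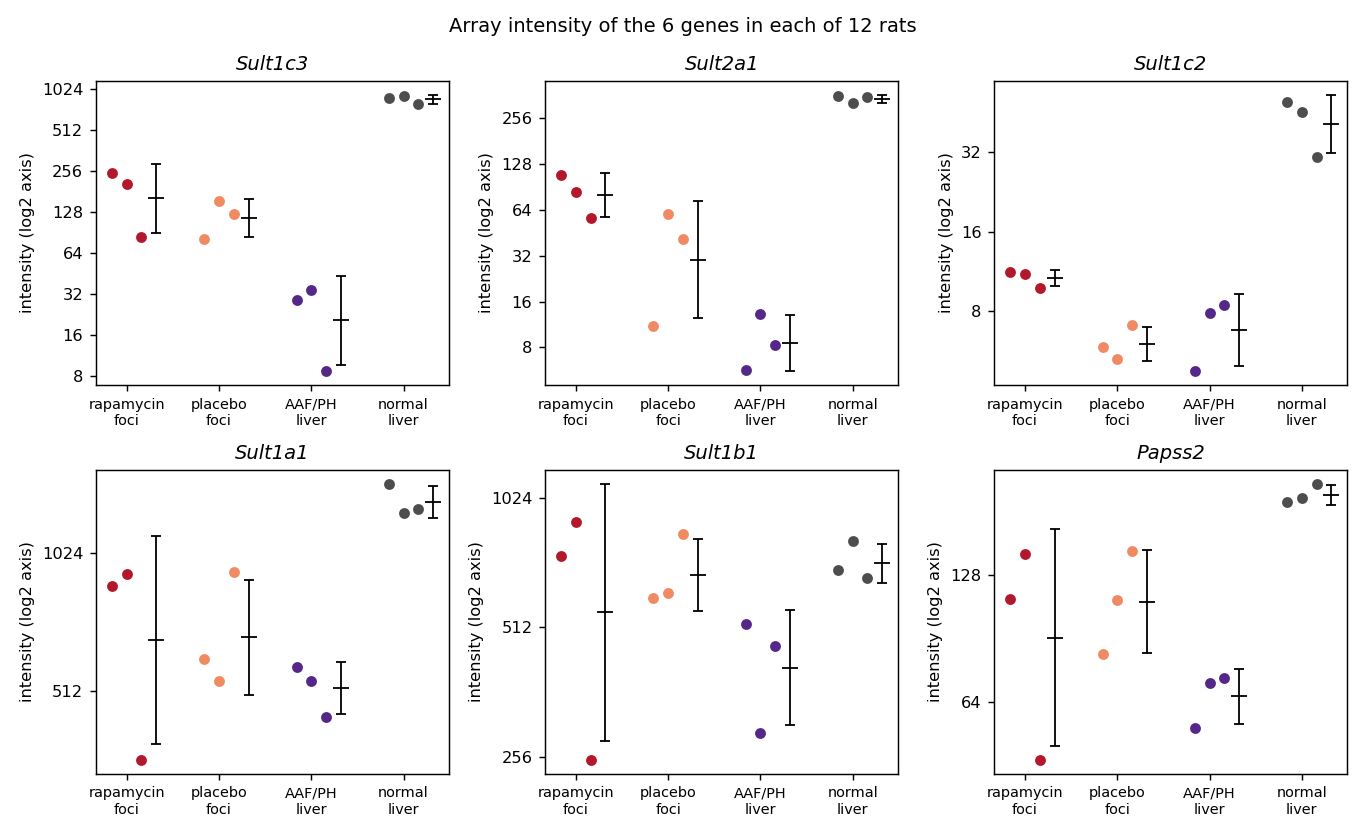
Array intensity (log2 axis) of the 6 genes in each of 12 rats, with points for animals 1, 2 and 3 of a group from left to right and, beside them, the mean of the log2 values with a bar of ± 1 SD (n = 3). Sult1c3, Sult2a1 and Sult1c2 are set apart in normal liver from every treated animal, Sult1b1 overlaps between foci and normal liver, and rapamycin animal 3 is the lowest of its group in all 6 panels.

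Over the 6 genes, 5 were called lower and 0 higher in AAF/PH liver than in normal liver, where 12.5% of all genes were called lower (1809 genes lower and 1093 higher, or 2100 and 524 after each animal was centred on its median). The median log2 difference of the members was -2.08, beside 0.12 for all genes. In all 6 the AAF/PH animals lay below the normal ones without overlap, which held for 22.2% of all genes. In rapamycin foci 3 of 6 were called lower than normal liver (4.94% of all genes, 716 lower and 232 higher, or 782 and 87 after centring), with a median of -1.53 beside 0.07 for all genes. Placebo foci likewise had 3 of 6 called lower than normal liver (5.39% of all genes), with a median of -1.87 beside 0.04. In each kind of foci the animals of 5 members lay wholly below normal liver, against 14.6% of all genes in rapamycin foci and 15.7% in placebo foci. Sult1c3 and Sult2a1 had been seen among the strongest decreases of AAF/PH liver when the members were chosen, so that their share in these counts is a description. All 3 comparisons use the same normal animals.

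The number called depended on rapamycin animal 3, whose spread enters the common error of the fit. Without it 6 members were called lower in AAF/PH liver and 5 in placebo foci relative to normal liver, while the count for rapamycin foci was 3. The shares of all genes called lower were then 19.7%, 11.7% and 3.89% in the same order, so that they too were larger in AAF/PH liver and placebo foci. The placebo calls gained were those of Sult1a1 and of Papss2 (adjusted p = 0.00458).

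**Figure D2:**
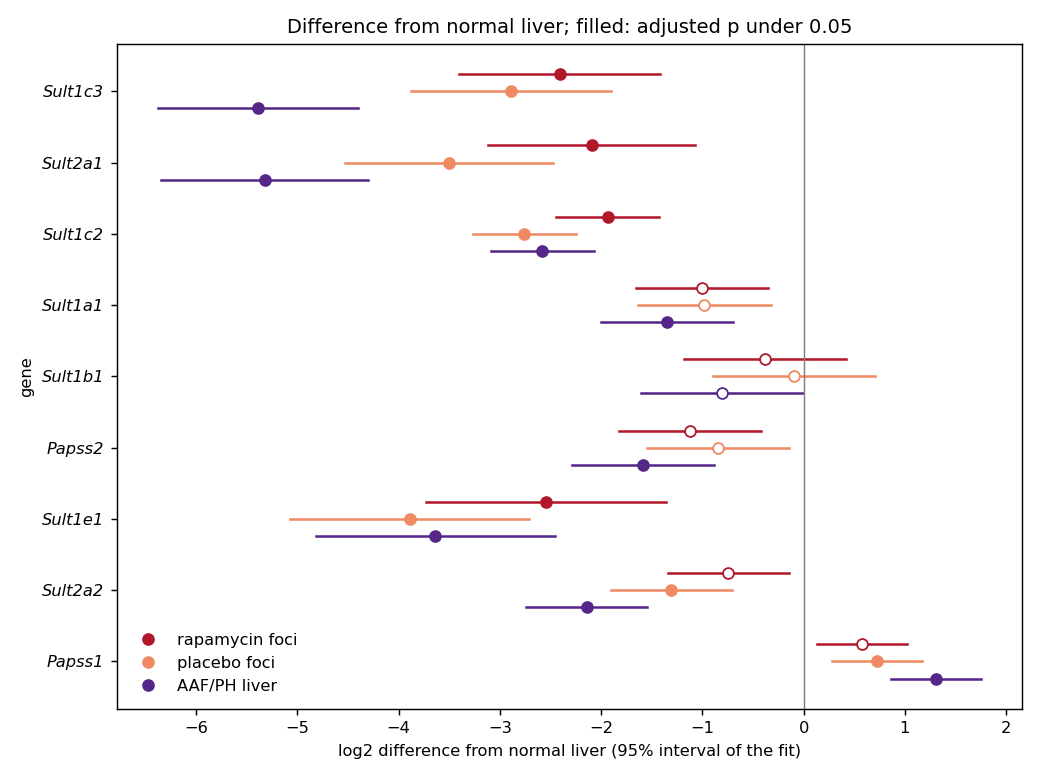
Log2 difference from normal liver, with the 95% interval of the limma fit, for the 6 genes and for Sult1e1, Sult2a2 and Papss1, in rapamycin foci, placebo foci and AAF/PH liver (12 animals in 1 fit). Filled points passed an adjusted p of 0.05. Sult1c3 and Sult2a1 lie beyond -5 in AAF/PH liver and between -2 and -4 in foci, and Papss1 lies above 0.

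Set directly against AAF/PH liver, 2 of 6 members were called higher in rapamycin foci (2.14% of all genes) and 2 of 6 in placebo foci (2.63% of all genes), Sult1c3 and Sult2a1 in both. No member was called lower, as 1.87% and 1.57% of all genes were. The median differences of the members from AAF/PH liver were 0.55 in rapamycin foci and 0.73 in placebo foci, beside -0.01 and -0.05 for all genes. Without overlap, 3 members lay above AAF/PH liver in rapamycin foci (Sult1c2, Sult1c3 and Sult2a1, against 5.44% of all genes) and 3 in placebo foci (Sult1b1, Sult1c3 and Papss2, against 13.0%). For Sult1c2 every value of rapamycin foci and AAF/PH liver was under the median of its array, so its separation rests on dim values. Sult1b1 and Papss2 in placebo foci differed from AAF/PH liver by 0.72 ± 0.37 and 0.74 ± 0.33, with limma adjusted p of 0.397 and 0.292. Without rapamycin animal 3 the counts were 5 of 6 for rapamycin foci and 4 of 6 for placebo foci, beside 10.4% and 7.81% of all genes called higher.

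The comparison of rapamycin foci with placebo foci asks whether 21 days of mTOR inhibition left a trace in lesions taken later. No member was called, as no gene on the array was (0% of all genes at an adjusted p under 0.05, and 484 genes, or 3.34%, at an unadjusted limma p under 0.05). At unadjusted p under 0.05 limma listed Sult1c2 and Sult2a1. For Sult1c2 the fitted difference was 0.82 ± 0.24 (limma adjusted p = 0.985) and the animals did not overlap, which 3.63% of all genes showed in that direction, but all 6 foci values were under the median of their arrays, so no fold is given. For Sult2a1 the difference was 1.41 ± 0.48 (95% interval 0.38 to 2.43, limma adjusted p = 0.985), with rapamycin animal 3, at 56.7, inside the placebo range that ended at 60.3. Without placebo animal 1 it was 0.68, or 1.60-fold (limma adjusted p = 0.978). The intervals of the other 4 members ran on both sides of 0: -0.67 to 0.63 for Sult1a1, -1.09 to 0.51 for Sult1b1, -0.51 to 1.47 for Sult1c3 and -0.98 to 0.42 for Papss2.

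Papss2 supplies the PAPS that every sulfotransferase consumes. It read 112.6, 143.8 and 46.7 in rapamycin foci, 83.2, 112 and 145.9 in placebo foci and 55.7, 71.2 and 73.1 in AAF/PH liver, against 190.4, 195 and 211.1 in normal liver. All treated animals lay below the normal ones. The decrease from normal liver was 3.00-fold in AAF/PH liver (-1.59 ± 0.33, limma adjusted p = 0.00353). It was -1.12 ± 0.33 in rapamycin foci and -0.84 ± 0.33 in placebo foci, neither past the threshold (limma adjusted p = 0.0551 and 0.154), and in its order AAF/PH liver, rapamycin foci, placebo foci and normal liver no neighbours were separated.

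Papss1, the other PAPS synthase gene, went the opposite way, most clearly in AAF/PH liver. Its intensities were 24.4, 25.7 and 15.4 in rapamycin foci, 24.5, 19.6 and 27.7 in placebo foci and 32.3, 34.9 and 39.4 in AAF/PH liver, against 14.2, 14.8 and 13.9 in normal liver. All treated animals were above all normal ones. In normal liver the gene was under the median of all 3 arrays. With the dim values raised, AAF/PH liver was 1.74-fold higher than normal liver (fitted difference 1.31 ± 0.21, limma adjusted p = 0.000518), a call made in 22 of 22 alternatives. In placebo foci the difference was 0.73 ± 0.21 (limma adjusted p = 0.0444), called in 9 of 22 alternatives, and in rapamycin foci 0.57 ± 0.21 (limma adjusted p = 0.11). With the dim values raised the folds were 1.16 in placebo foci and 1.05 in rapamycin foci. Placebo animal 2 and rapamycin animal 3 were themselves under the medians of their arrays, so a rise in the foci rests on dim values. The intensity of Papss2 over that of Papss1 was formed within each animal, a quantity chosen after the values were seen. It was 4.61, 5.59 and 3.04 in rapamycin foci, 3.40, 5.73 and 5.27 in placebo foci and 1.72, 2.04 and 1.86 in AAF/PH liver, against 13.4, 13.2 and 15.2 in normal liver. The ratio of 2 probe sets is not a ratio of transcripts, and in normal liver it rests on the dim Papss1 values. It was highest in normal liver, lowest in AAF/PH liver and between them in the foci, whose kinds overlapped. It is given as a description, with no test.

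**Figure D3:**
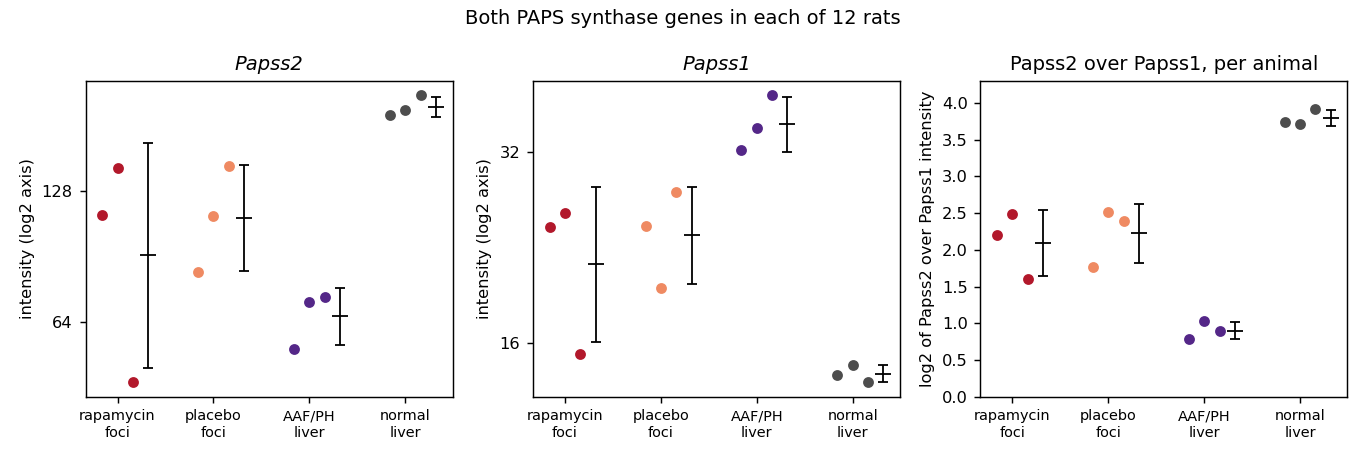
Intensity of Papss2 and of Papss1 (log2 axes) and the log2 ratio of their intensities within each of 12 rats, with the mean and ± 1 SD of the log2 values (n = 3). Papss2 is highest and Papss1 lowest in normal liver, and the ratio is lowest in AAF/PH liver, with the foci between.

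The promoter windows of this pair are shown because the genes were called in opposite directions in AAF/PH liver. Papss2 lies at chr1:239867463-239867762 and Papss1 at chr2:222714180-222714479, both on the plus strand of GRCr8, with capitals as above.
Papss2: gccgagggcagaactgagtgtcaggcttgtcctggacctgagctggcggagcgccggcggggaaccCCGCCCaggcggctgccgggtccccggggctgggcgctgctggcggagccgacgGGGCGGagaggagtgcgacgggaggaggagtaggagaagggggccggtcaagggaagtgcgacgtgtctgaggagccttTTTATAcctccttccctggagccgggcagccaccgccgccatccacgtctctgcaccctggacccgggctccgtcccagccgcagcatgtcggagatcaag
Papss1: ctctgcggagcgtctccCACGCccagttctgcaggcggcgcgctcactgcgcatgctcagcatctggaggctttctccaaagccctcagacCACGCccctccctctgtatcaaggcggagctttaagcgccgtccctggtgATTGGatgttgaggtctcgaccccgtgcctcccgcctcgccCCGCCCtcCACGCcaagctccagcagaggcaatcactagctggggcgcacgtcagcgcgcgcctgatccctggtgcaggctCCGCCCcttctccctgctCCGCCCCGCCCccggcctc
Both were rich in G and C (70.3% for Papss2 and 68.3% for Papss1) and held GC boxes, 2 in Papss2 and 4 in Papss1, of which the last 2 in Papss1 share 1 base. The aryl hydrocarbon receptor core GCGTG matched 3 times in Papss1, always on the opposite strand, a motif present in 29.7% of all windows. Papss2 also held TATAAA on the opposite strand at -51 to -46, and Papss1 CCAAT on the opposite strand at -109 to -105.

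Among 12 other sulfotransferase genes listed, 7 could be read from a probe set of their own, and 2 were called lower in AAF/PH liver and in placebo foci than in normal liver and 1 in rapamycin foci, with 0 called higher in each. Over all genes, 12.5%, 5.39% and 4.94% were called lower in AAF/PH liver, placebo foci and rapamycin foci. The shares called higher were 7.54%, 2.84% and 1.60%. Sult1e1, the estrogen sulfotransferase, measured 429, 332.4 and 195.4 in rapamycin foci, 79.6, 171.9 and 124 in placebo foci and 461.8, 106.8 and 58.3 in AAF/PH liver, against 1638.6, 2196.2 and 1540.1 in normal liver. All treated animals lay below the normal ones. The log2 difference from normal liver was -2.55 ± 0.55 in rapamycin foci (limma adjusted p = 0.0147), -3.89 ± 0.55 in placebo foci (limma adjusted p = 0.000504) and -3.64 ± 0.55 in AAF/PH liver (limma adjusted p = 0.000349), with a wide spread among the AAF/PH animals. The rapamycin call was lost without normal animal 1 or normal animal 3 (limma adjusted p = 0.0662 and 0.0553). The AAF/PH difference was -4.49 without AAF/PH animal 1 and -2.99 without AAF/PH animal 3, and was called in both. Sult2a2, a close relative of Sult2a1, fell by 2.14 ± 0.28 in AAF/PH liver and by 1.31 ± 0.28 in placebo foci on the log2 scale (limma adjusted p = 0.000102 and 0.00828). Its difference in rapamycin foci was -0.74 ± 0.28 (limma adjusted p = 0.121). The AAF/PH values of Sult2a2, 9.44, 21.7 and 9.36, were under the medians of their arrays. Its placebo values, 23.7, 20.7 and 22.2, were near them, so the sizes of these falls rest on dim values. Sult1d1, Sult2b1, Sult4a1, Sult5a1 and Sult6b1 were not called against normal liver, with differences between -0.03 and 0.44. The group geometric means of Sult1d1, Sult5a1 and Sult6b1, from 5.44 to 14.9, were under the array medians. Those of Sult4a1, from 19.3 to 25.4, were near them. A missing call for such dim genes does not show steady expression, and the list median rests partly on them. The median of the 7 genes was 0.40 in rapamycin foci, 0.10 in placebo foci and 0.17 in AAF/PH liver, beside 0.07, 0.04 and 0.12 for all genes.

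Close relatives share sequence, and some probe sets are annotated to more than 1 of them. A pair annotated to both Sult1c2a and Sult1c2 had geometric means of 74.2 and 85.3 in rapamycin foci, 70.0 and 74.1 in placebo foci and 60.0 and 58.3 in AAF/PH liver, against 111.2 and 190.4 in normal liver. The probe set of Sult2a2 and Sult2a6 read 159, 195 and 35.6 in rapamycin foci, 88.2, 37.6 and 144.6 in placebo foci and 36.9, 62.2 and 29.9 in AAF/PH liver, against 236.8, 127.3 and 230.5 in normal liver. Its foci overlapped normal liver, and its AAF/PH animals did not. These shared probe sets were not tested. Cross-hybridisation between relatives was not tested.

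Of 21 genes listed for sulfate supply and the handling of PAPS, 17 were measured. In AAF/PH liver 11 were called lower and 1 higher than normal liver, with a median difference of -1.23 beside 0.12 for all genes. Rapamycin foci had 7 lower and 0 higher, with a median of -0.79, and placebo foci 6 lower and 1 higher, with a median of -0.72. The shares of all genes called lower were 12.5% in AAF/PH liver, 4.94% in rapamycin foci and 5.39% in placebo foci. Those called higher were 7.54%, 1.60% and 2.84% in the same order. For rapamycin foci the count of lower calls ran from 1 to 10 over the alternatives. Without rapamycin animal 3 it was 5, and that of placebo foci was 9, where the shares of all genes called lower were 3.89% and 11.7%. The 1 gene called higher was Papss1.

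Much of this list makes sulfate from cysteine. Cdo1, cysteine dioxygenase, which opens the route from cysteine to sulfite and taurine, had 635.8, 641.3 and 295.1 in rapamycin foci, 308.7, 421.7 and 421 in placebo foci and 229.4, 340.8 and 167.4 in AAF/PH liver, against 1364.2, 1318.1 and 1161.8 in normal liver. Its differences from normal liver were -1.37 ± 0.30, -1.75 ± 0.30 and -2.44 ± 0.30 in that order of groups, with limma adjusted p of 0.0153, 0.00206 and 6.4e-05. Suox, sulfite oxidase, which forms the sulfate itself, had 133, 102.5 and 67.6 in rapamycin foci, 84.9, 100.3 and 98.8 in placebo foci and 85.1, 94.6 and 56.3 in AAF/PH liver, against 224.3, 226.1 and 218.1 in normal liver. It was called lower in all 3 treated groups (limma adjusted p = 0.0107, 0.00491 and 0.000473). Both genes were at their highest in all 3 normal animals, without overlap with any treated animal. In rapamycin foci the call of Cdo1 was lost without normal animal 1 or normal animal 3 (limma adjusted p = 0.0851 and 0.0553) and that of Suox without normal animal 1 (limma adjusted p = 0.0587).

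Cth (cystathionine gamma-lyase), which releases cysteine, had log2 differences from normal liver of -1.86 ± 0.34 in rapamycin foci, -2.08 ± 0.34 in placebo foci and -2.29 ± 0.34 in AAF/PH liver (limma adjusted p = 0.00688, 0.00156 and 0.000326). Cbs (cystathionine beta-synthase), the enzyme before it, had differences of -1.39 ± 0.24, -1.70 ± 0.24 and -1.29 ± 0.24 in the same groups (limma adjusted p = 0.00486, 0.000515 and 0.00177). Slc13a4, a sodium-sulfate cotransporter, had differences of -1.0 ± 0.21, -1.20 ± 0.21 and -1.26 ± 0.21 (limma adjusted p = 0.0139, 0.0027 and 0.00081), the rapamycin call being lost without normal animal 3 (limma adjusted p = 0.083). Tst (thiosulfate sulfurtransferase) and Ethe1 (persulfide dioxygenase), enzymes of mitochondrial sulfide breakdown, differed between foci and AAF/PH liver. In AAF/PH liver Tst was at -2.09 ± 0.25 and Ethe1 at -2.33 ± 0.29 relative to normal liver (limma adjusted p = 5.13e-05 and 7.57e-05). In rapamycin foci Tst was at -0.73 ± 0.25 and Ethe1 at -1.05 ± 0.29 (limma adjusted p = 0.0959 and 0.0457), and in placebo foci they were at -0.53 ± 0.25 and -0.76 ± 0.29 (limma adjusted p = 0.254 and 0.147). The Ethe1 call in rapamycin foci was made in 8 of 22 alternatives. Rapamycin foci exceeded AAF/PH liver by 1.36 for Tst and 1.27 for Ethe1, and placebo foci by 1.56 for each (limma adjusted p = 0.00526, 0.0233, 0.00192 and 0.00606). The rapamycin call of Ethe1 against AAF/PH liver was made in 15 of 22 alternatives and was lost without any 1 of the AAF/PH animals (limma adjusted p of 0.0687, 0.0734 and 0.101) and without rapamycin animal 1 or rapamycin animal 2 (limma adjusted p = 0.0967 and 0.0925).

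Other enzymes and exporters of AAF and its metabolites, 20 measured of 27 listed, were called in both directions. Against normal liver, 5 were higher and 1 lower in rapamycin foci (median 0.02), 7 higher and 2 lower in placebo foci (median 0.44), and 6 higher and 6 lower in AAF/PH liver (median 0.20). Of all genes, 1.60%, 2.84% and 7.54% were called higher in those groups, and 4.94%, 5.39% and 12.5% were called lower. Abcb1b, a P-glycoprotein that pumps drugs out of cells, reached 143.3, 191.1 and 57.1 in rapamycin foci, 272.9, 180.8 and 239.4 in placebo foci and 1184.3, 1104.3 and 1280.2 in AAF/PH liver, against 38.2, 40.8 and 55.1 in normal liver. It was 26.9-fold higher in AAF/PH liver than in normal liver (4.75 ± 0.34, limma adjusted p = 5.1e-07). Cyp1a2, the cytochrome P450 that N-hydroxylates AAF and so makes the substrate of Sult1c3, had 119.8, 128.9 and 92.2 in rapamycin foci, 66, 90.3 and 89.7 in placebo foci and 189.7, 223.3 and 118.7 in AAF/PH liver, against 393.6, 524.5 and 493.4 in normal liver. It fell in all 3 treated groups, in the same order, with log2 differences of -2.05 ± 0.24, -2.52 ± 0.24 and -1.45 ± 0.24 (limma adjusted p = 0.000247, 1.68e-05 and 0.000706). Placebo foci lay further below than AAF/PH liver (-1.08, limma adjusted p = 0.0186, called in 18 of 22 alternatives and lost without AAF/PH animal 1, AAF/PH animal 2 or placebo animal 1), whereas Sult1c3 was higher in placebo foci than in AAF/PH liver.

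Enzymes that remove the acetyl group of AAF or hydrolyse esters differed among themselves in AAF/PH liver relative to normal liver. Ces1d fell by 3.68 ± 0.33 on the log2 scale and Aadac, arylacetamide deacetylase, fell by 2.70 ± 0.39 (limma adjusted p = 3.71e-06 and 0.000214). Ces2c rose by 1.78 ± 0.24, and Cyp1b1, a cytochrome P450, rose by 1.79 ± 0.27 (limma adjusted p = 0.000146 and 0.000334). Cyp1b1 was under the array medians in every animal of normal liver and of both kinds of foci. Aadac was under them in every AAF/PH animal, and Ces1d in AAF/PH animal 3. The sizes of the differences of Cyp1b1, Aadac and Ces1d therefore rest partly on dim values. Sts, steroid sulfatase, which undoes steroid sulfonation, fell by 1.38 ± 0.22 (limma adjusted p = 0.000534). In the foci the 1 call among these 5 genes was that of Ces2c in placebo foci (0.84 ± 0.24, limma adjusted p = 0.0462, made in 9 of 22 alternatives). The uncalled differences from normal liver in rapamycin foci and placebo foci were -0.82 and -0.48 for Ces1d, -0.61 and -0.49 for Aadac, 0.51 and 0.42 for Cyp1b1, and -0.41 and -0.51 for Sts, and Ces2c was at 0.46 in rapamycin foci. In placebo foci Abcc3 (3.75 ± 0.31), Abcc4 (1.57 ± 0.17) and Nqo1 (4.21 ± 0.45) rose over normal liver, the first and second being exporters of conjugates and the third a quinone reductase (limma adjusted p = 5.7e-06, 5.68e-05 and 4.9e-05). The same 3 genes were higher in rapamycin foci (3.14 ± 0.31, 0.82 ± 0.17 and 2.94 ± 0.45, limma adjusted p = 5.7e-05, 0.0131 and 0.00193). The rapamycin difference of Nqo1 was 3.70 without rapamycin animal 3, and the call of Abcc4 there was lost without normal animal 1 or normal animal 3 (limma adjusted p = 0.0838 and 0.0531). In AAF/PH liver Abcc3 was also higher than normal liver (1.37 ± 0.31, limma adjusted p = 0.00624), while Abcc4 (0.15 ± 0.17) and Nqo1 (-0.14 ± 0.45) were not called (limma adjusted p = 0.536 and 0.827).

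**Figure D4:**
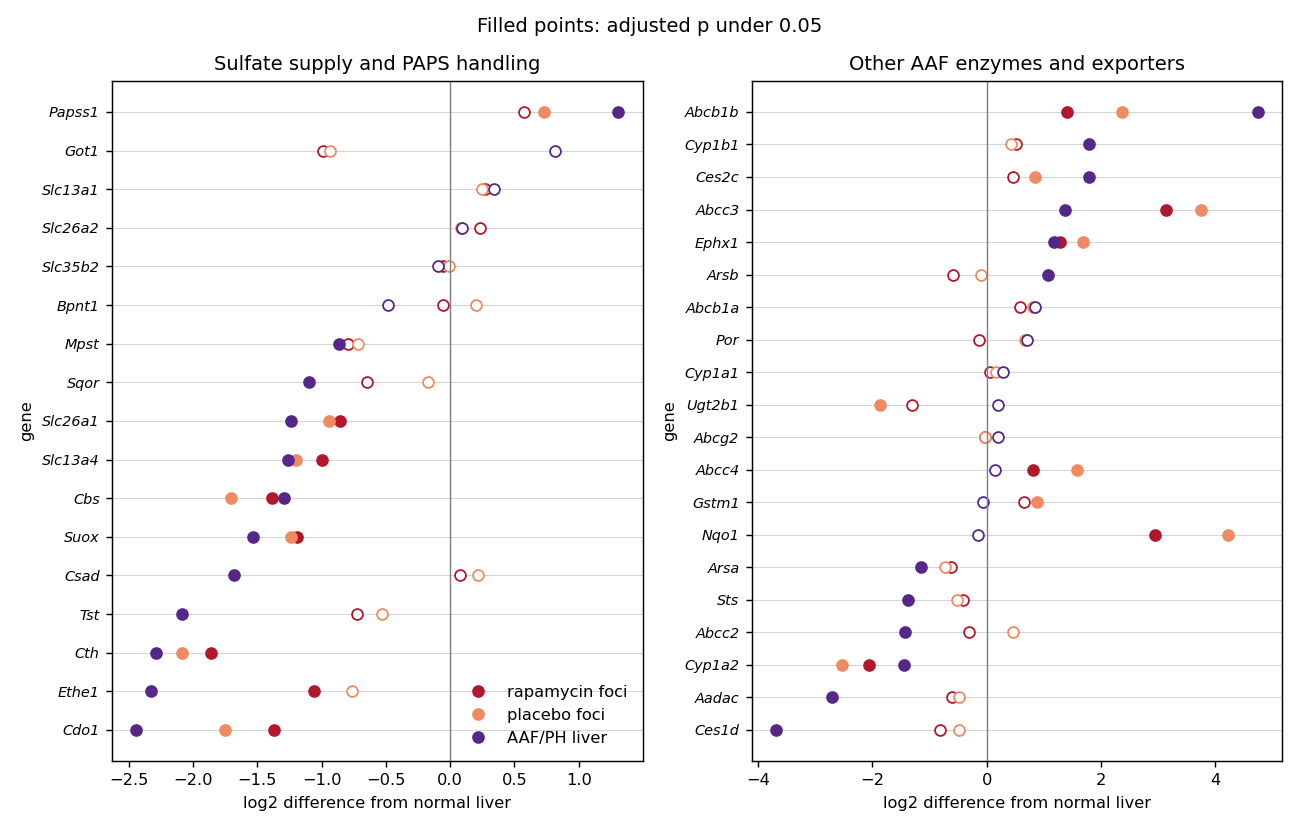
Log2 difference from normal liver of every measured gene for sulfate supply and PAPS handling (left, 17 genes) and of the other AAF enzymes and exporters (right, 20 genes), in rapamycin foci, placebo foci and AAF/PH liver, each from 3 animals. Filled points passed an adjusted p of 0.05 by limma. On the left most genes lie below 0 and Papss1 stands above it, and on the right the points lie on both sides.

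Markers of cell types differed between the groups. Of all genes, 4.94%, 5.39% and 12.5% were called lower than in normal liver in rapamycin foci, placebo foci and AAF/PH liver. The shares called higher were 1.60%, 2.84% and 7.54%. The summed intensity of 10 hepatocyte markers ranged from 28009.6 to 41966.5 in rapamycin foci, 30943.6 to 36695.3 in placebo foci and 22564.8 to 26559.4 in AAF/PH liver, against 43896.9 to 48673.2 in normal liver, and 1, 5 and 8 of the 10 were called lower than in normal liver in those treated groups. The lowest rapamycin sum was that of animal 3. The median log2 difference of the 10 hepatocyte markers between AAF/PH liver and normal liver was -0.97, beside -2.08 for the sulfotransferase and Papss2 genes. Of 6 biliary and oval cell markers measured, 2, 3 and 5 were called higher than normal liver in rapamycin foci, placebo foci and AAF/PH liver, with sums of 179.3 to 365.4, 349.3 to 587.3 and 390.7 to 584.9, against 107.2 to 131 in normal liver. Albumin still read 4502.9 on average in AAF/PH liver, against 8147.2 in normal liver, so the tissue labelled oval cells held abundant hepatocyte transcripts. Stellate cell and matrix markers were called higher in 6 of 10 cases in AAF/PH liver (sums 1759.6 to 4792.9, against 668.9 to 910.1 in normal liver), with 0 higher in rapamycin foci (607.8 to 848.2) and 1 in placebo foci (802.7 to 1121.7). Of the other lists, 3, 1 and 0 of 8 macrophage markers were called lower in rapamycin foci, placebo foci and AAF/PH liver (sums 355.8 to 576.9, 493.8 to 764 and 794.7 to 957.7, against 601.3 to 837.4 in normal liver), with 1 called higher in AAF/PH liver. Of 4 endothelial markers 1 was lower in each treated group (sums 199.9 to 360.8, 279.4 to 382.1 and 266 to 392.5, against 429.8 to 450.4 in normal liver). Lymphocyte markers had sums of 120.9 to 151.9, 103.3 to 130.1 and 140 to 163.2, against 92.5 to 117.5 in normal liver, with 1 of 6 called higher, in AAF/PH liver. Cd3e, Cd3d, Cd2 and Ms4a1 of that list were under the array medians, with group geometric means from 6.13 to 18.9. Differences in the lymphocyte sums therefore rest partly on dim values, which may not stand above background. Erythroid markers had sums of 310.2 to 393.2, 322.8 to 351.3 and 332.5 to 355.2, against 514.2 to 1143.2 in normal liver, with 1, 1 and 2 of 3 called lower. The lowest marker intensity was 3.52. Since the lowest value of the whole table was 2.14, an intensity above 0 does not show that a cell type was present. The part of cell composition in the results above was not tested.

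The genes whose pattern over the 12 animals was most like each member were taken by Pearson's r on log2 values among 6758 genes with a mean log2 intensity of at least 5, leaving out predicted genes, microRNAs and olfactory and vomeronasal receptors. The r is a description, set largely by the level of the groups. For Sult1c3 they were Apon (r = 0.995), Rgn and Ttpa, hepatocyte genes of lipoprotein, calcium and vitamin E handling. For Sult2a1 they were Cyp2c11 (r = 0.973), the male-specific cytochrome P450 of rat liver, Fabp1 and Apoa4. Cyp2c11 had geometric means of 246.5 in rapamycin foci, 90.0 in placebo foci and 13.3 in AAF/PH liver, against 1713.0 in normal liver, the same order as Sult2a1. The nearest genes were Foxa1 (r = 0.963), Fabp7 and Stac3 for Sult1c2, Cpn1 (r = 0.986), Xpo7 and Cfhr4 for Sult1a1, Cdh2 (r = 0.971), Rpn1 and Txnl1 for Sult1b1, and Crls1 (r = 0.987), Ubl5 and F5 for Papss2. Among the members themselves the pair most alike was Sult1c3 with Sult2a1 (r = 0.94) and the least alike Sult1b1 with Sult1c2 (r = 0.32), over the same 12 animals.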

How the data were processed

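The authors deposited 1 table of array intensity values for 28826 probe sets and 14 arrays. The intensities were linear, from 2.14 to 14037.8. The submitters' processing notes list Partek 6.6 and RMA without saying what each did, and further settings are not given in the sources used here. RNA input was 150 ng per the labels. Values were turned into log2 here without a pseudocount. The 3 arrays of rapamycin animal 3 (a pair from 1 RNA, the other from a second capture, per the labels) were averaged on the log2 scale.

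By the platform annotation 15214 probe sets had 1 symbol (5 of them list it repeatedly), 301 several and 13311 none. For the 494 genes with several probe sets the one of highest mean was used, which left 14502 genes. Of these 14475 were matched to GRCr8, with 0 symbols changed. Each member had 1 probe set.

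limma 3.58.1 in R 4.3.3 (lmFit, eBayes, 2-sided) fitted the 4 group means over 12 animals (8 residual, 6.37 prior degrees of freedom). Adjustment was by Benjamini-Hochberg over all genes, and an adjusted p under 0.05 was called. The ± values of log2 differences are standard errors of the fit. The calculation was tested on simulated data. The number of arrays limits the precision, and no depth applies.

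The members, gene lists and motifs were chosen with earlier results of these data known. Named are all members, all measured sulfotransferases and Papss1, and the list genes of smallest p against normal liver (up to 6 for AAF/PH liver, up to 4 for placebo foci). For each member the 3 most alike genes with a mean log2 intensity of at least 5 are named. Values of named list genes in groups other than the one that named them, Suox in foci and Cyp1a2 in AAF/PH liver extend that rule and were chosen after their values were seen. Promoter sequences are from RefSeq.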

Additional observations from a re-analysis of the deposited data

How the results depend on the processing

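Every member result was recomputed under 22 alternatives, of which 12 left out 1 animal each. Of 786 results 729 kept their direction and their side of the threshold, 11 that were not called changed sign, 33 passed it newly, 13 no longer passed it and 0 called results reversed. Those lost were Sult2a1 in placebo foci against AAF/PH liver (11) and in rapamycin foci against normal liver (2). The members called, 3 in placebo foci against normal liver, became 5 with array weights and 5 with only the compared groups in the fit. In rapamycin foci against normal liver 3 became 5 with weights, in rapamycin against placebo foci 0 became 3, and in rapamycin foci against AAF/PH liver 2 became 6. In each of these comparisons the calls over all genes rose under the same setting, as given below. The gains in members alone therefore do not set the members apart from other genes. In placebo foci against AAF/PH liver 2 became 1 with median centring, 1 with the first array of rapamycin animal 3 and 1 with the replicate block. Leaving out 1 animal gave 5 to 6 members in AAF/PH liver against normal liver, 3 to 5 in placebo foci and 2 to 5 in rapamycin foci against normal liver, 0 to 0 in rapamycin against placebo foci, and 1 to 4 and 2 to 5 in placebo foci and rapamycin foci against AAF/PH liver.

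The counts of all genes called, out of 14502, moved more. With weights the counts were 6854 (2902 without) in AAF/PH liver, 5316 (1193) in placebo foci and 4475 (948) in rapamycin foci against normal liver, 537 (0) in rapamycin against placebo foci, and 1597 (609) and 3104 (581) in placebo foci and rapamycin foci against AAF/PH liver. limma's default estimate of the weights did not converge and was replaced, after this was seen, by its gene-by-gene method, which gave weights from 0.11 (rapamycin animal 3) to 4.03 (rapamycin animal 1). With only the compared groups the counts were 5117, 2299, 211, 1332 and 202 in the same order without rapamycin against placebo foci. For placebo foci and rapamycin foci against AAF/PH liver, quantile normalization gave 1066 and 1180 and median centring 401 and 375. Leaving out 1 animal gave 1552 to 5209, 607 to 2464, 224 to 2050, 0 to 3, 331 to 1737 and 296 to 2059. The highest counts of 5209, 2464, 1737 and 2059 came without rapamycin animal 3. Against normal liver, centring put the median over all genes at -0.08 in AAF/PH liver (0.12 before) and at -0.10 in rapamycin foci (0.07 before). The causes were not tested.

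The replicate block gave 556 genes in rapamycin foci against normal liver. The labels' animal numbers were not shown to pair the animals, as same-numbered animals had correlated deviations from -0.68 to 0.38. Apart from placebo foci against AAF/PH liver (1 member with the block, 2 without), the block changed no member count.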
